A study of Mus musculus with 2 samples.

Results

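Transcripts of 10 genes of the AP-1 and ATF3 group of transcription factors were measured in the nucleus of mouse macrophages that had met a bacterial stimulus before. The genes were chosen by name: Fos, Fosb, Fosl1 and Fosl2 of the FOS family, Jun, Junb and Jund of the JUN family, Atf3 and Batf, and the small MAF gene Maff. All 10 were found by symbol among the 55536 genes of the deposited gene tables. The material was the nucleoplasmic RNA of bone marrow-derived macrophages of C57BL/6J mice, which were given lipid A, the Toll-like receptor 4 ligand of bacterial lipopolysaccharide, at 100 ng/ml for 12 h, then washed out for 12 h, and then given 100 ng/ml lipid A again for 90 min. RNA was depleted of ribosomal RNA and sequenced as 2 libraries, replicates 1 and 2, which form 1 group. The sex and age of the mice were not collected, both libraries carry the same donor entry, and nothing in the labels ties them to separate animals, so the spread between them may be technical. No unstimulated or once-stimulated library was analysed here, so no level below can be read as an induction, and no p-value was computed.

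AP-1 is a dimer of basic leucine zipper (bZIP) proteins. JUN proteins pair with each other or with FOS, ATF or BATF proteins, whereas FOS proteins need a JUN partner to bind DNA, and the make-up of the dimer sets whether it favours the AP-1 element or the longer cyclic AMP response element (CRE). In macrophages, Toll-like receptor signals reach these genes through the mitogen-activated protein kinases. Many of the genes are immediate-early genes whose transcripts are short-lived, and in mice ATF3 is known as a restraint on Toll-like receptor-induced cytokine genes. Small MAF proteins such as MAFF lack an activation domain and pair with other bZIP proteins, among them NFE2L2 and BACH1.

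Promoter windows are given for Junb, Atf3 and Jun, whose transcripts were lower in replicate 2 than in replicate 1 by more than 2-fold in scaled counts, and for Fos and Fosl2, the pair of FOS genes with levels above 1 TPM, a unit that corrects counts for transcript length and sets them against the library's whole. The sequences are from RefSeq on the GRCm38.p6 build, the assembly also named mm10, and each runs 5′ to 3′ along the gene's strand from 250 bases before the annotated start to 50 bases from that start onward, 300 bases in all. Junb is at chr8:84978699-84978998, Atf3 at chr1:191183284-191183583 and Jun at chr4:95052173-95052472, all on the minus strand, and Fos is at chr12:85473640-85473939 and Fosl2 at chr5:32136222-32136521, both on the plus strand. Capitals mark every match, on either strand, to 6 motifs. The AP-1 element was searched as TGANTCA. The letters searched for the CRE were TGACNTCA, while its half-site was searched as TGACGT. The TATA box was searched as TATAAA, beside the CCAAT box. The sixth motif was the serum response factor box known as CArG.
Junb: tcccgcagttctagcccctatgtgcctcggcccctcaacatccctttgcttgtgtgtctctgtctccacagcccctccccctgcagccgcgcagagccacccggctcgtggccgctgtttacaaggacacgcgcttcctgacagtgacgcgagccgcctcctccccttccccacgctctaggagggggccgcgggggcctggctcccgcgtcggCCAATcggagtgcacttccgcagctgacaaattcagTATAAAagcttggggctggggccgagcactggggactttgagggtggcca
Atf3: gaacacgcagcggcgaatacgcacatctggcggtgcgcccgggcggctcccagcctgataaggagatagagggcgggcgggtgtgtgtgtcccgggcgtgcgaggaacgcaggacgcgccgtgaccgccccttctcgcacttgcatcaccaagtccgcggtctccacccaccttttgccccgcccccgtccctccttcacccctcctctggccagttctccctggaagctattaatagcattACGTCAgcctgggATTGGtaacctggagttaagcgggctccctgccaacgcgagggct
Jun: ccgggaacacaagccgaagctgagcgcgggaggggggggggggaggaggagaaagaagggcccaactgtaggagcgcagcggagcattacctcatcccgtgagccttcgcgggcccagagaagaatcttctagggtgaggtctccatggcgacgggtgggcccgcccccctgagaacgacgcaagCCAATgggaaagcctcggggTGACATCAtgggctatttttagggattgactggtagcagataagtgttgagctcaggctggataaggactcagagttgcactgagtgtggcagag
Fos: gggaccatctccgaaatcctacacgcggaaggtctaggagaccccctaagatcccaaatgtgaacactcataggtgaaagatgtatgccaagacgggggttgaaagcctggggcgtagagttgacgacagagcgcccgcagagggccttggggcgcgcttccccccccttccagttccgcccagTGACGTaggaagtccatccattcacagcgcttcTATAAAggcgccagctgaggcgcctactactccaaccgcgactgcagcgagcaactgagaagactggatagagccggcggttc
Fosl2: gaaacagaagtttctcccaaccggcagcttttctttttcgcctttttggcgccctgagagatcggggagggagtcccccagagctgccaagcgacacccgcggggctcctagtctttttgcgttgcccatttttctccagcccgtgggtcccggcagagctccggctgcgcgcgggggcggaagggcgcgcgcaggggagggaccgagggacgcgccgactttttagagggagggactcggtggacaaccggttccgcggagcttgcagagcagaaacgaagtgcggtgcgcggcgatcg

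Junb held TATAAA at positions 1 to 6 from the RefSeq start and CCAAT at -36 to -32. The GENCODE start of Junb, on which the counts rest, lies 30 bases further downstream, and from it the same letters stood at -30 to -25 and at -66 to -62. Fos held TATAAA at -33 to -28 and the CRE half-site TGACGT at -66 to -61, with the same start in both annotations. Jun held the CRE letters TGACATCA at -45 to -38 and CCAAT at -65 to -61. Atf3 held the half-site at -8 to -3 and the CCAAT box at 6 to 10, both on the strand opposite to the gene. The GENCODE start of Atf3 lies 7 bases upstream, and from it these letters stood at -1 to 5 and at 13 to 17. Fosl2 held none of the 6 motifs in its window. The RefSeq start of Fosl2 lies 671 bases downstream of the GENCODE one, so the window lies within the gene as counted. It covers none of the sequence before the counted transcript. A match is a description of the letters and not evidence of a bound site.

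RefSeq windows were matched for 9 of the 10 genes, in 11 windows, since Maff has 3 annotated starts; Fosl1 has no entry. The Maff window of the start used by its leading transcript (position 79347520 of chromosome 15) held the full palindrome TGACGTCA at -29 to -22, in which the half-site match lies, and its most downstream window held TGACATCA at -45 to -38. Batf held TGACGT at -98 to -93. The AP-1 letters were in 0 of the 11 windows, against 7.81% of 32851 promoter windows of the same length, and the CArG box in 0 of 11, against 1.63%. Sequence further upstream than the windows was not searched, for Fos or any other gene. The windows of Fosl2 and Jund also do not adjoin the start of the counted transcript. A window without a match thus does not show that the gene lacks the motif. The CRE was in 3 of 11, against 8.83% of all windows, TATAAA in 2 of 11, against 13.6%, and CCAAT in 3 of 11, against 37.4%. The CRE matches came from Jun and Maff alone, and the windows of Maff are not separate genes. The half-site was in 4 of 11, against 7.51%. It was added after the sequences had been seen, so its share cannot be weighed against that of all windows. In Maff it was counted within the palindrome that was also counted as a CRE. The median GC content was 60% in the 11 windows and 52.7% in all windows.

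Of the 10 genes, 8 had at least 1 TPM in both libraries, where 38.7% of all 21951 protein-coding genes did. Since TPM is per transcript length, levels of different genes can be set side by side. The order by mean TPM was Junb, Atf3, Batf, Jund, Jun, Maff, Fos, Fosl2, Fosb and Fosl1. Neighbours in this order did not overlap between the libraries except Atf3 with Batf and Fos with Fosl2, but 2 of the gaps were narrow: the lower Junb value (56.38 TPM) lay just above the higher Atf3 value (55.28 TPM), and the lower Jund value (21.96 TPM) just above the higher Jun value (21.25 TPM). In the second deposited quantification of the same libraries, Batf with Jund, Jun with Maff, and Fosb with Fosl1 overlapped as well. The place of Batf also rests on gene TPM, which includes a transcript annotated as retaining an intron. By the first quantification its coding transcript Batf-201 had 20.29 TPM in replicate 1 and 20.89 TPM in replicate 2. Both values lay below those of Jund (22.38 and 21.96 TPM).

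**Figure D1:**
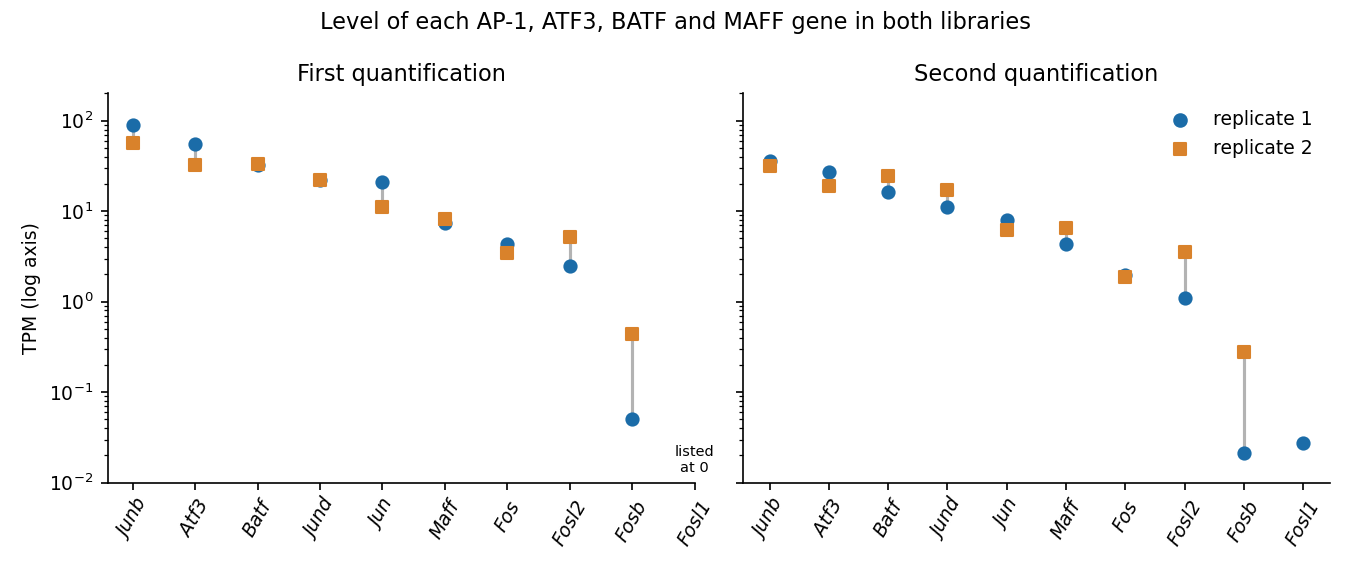
Level of each gene in TPM on a log axis, in the first (left) and second (right) deposited quantification, with 1 point for each library and a line joining both. Junb led in both quantifications, and Fosl1 is off the log axis where it is listed at 0.

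Junb, which encodes a JUN protein that activates some targets and restrains others, had 89.8 TPM in replicate 1 and 56.38 TPM in replicate 2, a mean of 73.09 ± 23.6 TPM (SD, n = 2). It was rank 396 among protein-coding genes, and 98.2% of them had a lower mean. Its gene lies on chromosome 8 (84974484 to 84978718, minus strand, mm10), and its single-exon transcript Junb-201 held 99.75% and 100% of its TPM in replicates 1 and 2.

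Jund, the JUN gene known for its broad and steady expression, had 22.38 TPM in replicate 1 and 21.96 TPM in replicate 2, a mean of 22.17 ± 0.297 TPM (SD, n = 2). Both libraries were thus alike in Jund TPM by the first quantification, whereas the second gave 11.2 TPM in replicate 1 and 17.0 TPM in replicate 2. Its single-exon gene is on chromosome 8 (70698949 to 70700616, plus strand). The RefSeq start of Jund lies 1210 bases upstream of the GENCODE one, so the RefSeq window does not adjoin the counted transcript.

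Jun, which encodes c-Jun, a substrate of the kinase JNK, had 21.25 TPM in replicate 1 and 11.11 TPM in replicate 2, a mean of 16.18 ± 7.17 TPM (SD, n = 2). Replicate 1 was the higher library for Jun, as for Junb. Jun is a single-exon gene on chromosome 4 (95049034 to 95052222, minus strand).

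Junb therefore made up most of the JUN family's transcripts, 67.3% of the summed TPM in replicate 1 and 63.0% in replicate 2. Jund held 16.8% in replicate 1 and 24.6% in replicate 2, and Jun held 15.9% and 12.4%. The family as a whole summed to 133.43 TPM in replicate 1 and 89.45 TPM in replicate 2, but to 55.2 and 54.9 TPM by the second quantification. The libraries thus barely differed in TPM there, but they did in scaled counts of the same quantification. The log2 ratios of replicate 2 over replicate 1 were -1.44 for Jun, -1.23 for Junb and -0.45 for Jund.

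FOS transcripts were far fewer. Fos, the gene of c-Fos and the best-known immediate-early gene, had 4.39 TPM in replicate 1 and 3.46 TPM in replicate 2, a mean of 3.925 ± 0.658 TPM (SD, n = 2). Fosl2, which encodes FRA-2, had 2.46 TPM in replicate 1 and 5.22 TPM in replicate 2, a mean of 3.84 ± 1.95 TPM (SD, n = 2). By gene TPM the means of Fos and Fosl2 were thus close, but replicate 1 was the higher library for Fos and replicate 2 for Fosl2. The coding transcript Fos-201 did not share the Fos difference, with TPM values of 2.45 (replicate 1) and 2.46 (replicate 2). The non-coding Fos-202 did, with 1.37 and 0.1, but on few reads. By the second quantification Fos-201 was the higher in replicate 2 (1.21, against 0.894). Fosl2 over Fos was 0.560 in replicate 1 and 1.51 in replicate 2, and 0.569 and 1.88 by the second quantification, so which of the pair led differed between the libraries under both. Fos is on chromosome 12 (85473890 to 85477273, plus strand) and Fosl2 on chromosome 5 (32135801 to 32157842, plus strand).

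Fosb and Fosl1 were the lowest of the 10 genes. Fosb, an immediate-early gene on chromosome 7 (19302696 to 19310051, minus strand), had 8 counts and 0.05 TPM in replicate 1 and 40 counts and 0.44 TPM in replicate 2, a mean of 0.245 ± 0.276 TPM (SD, n = 2). Fosl1, which encodes FRA-1, had 0 counts in both libraries. A count of 0 allows up to 3 counts, a floor of 0.102 CPM for replicate 1 and 0.169 CPM for replicate 2, where CPM is the count relative to the library's total; it covers counting error only. The second quantification gave Fosl1 1 count in replicate 1 and 0 in replicate 2. Fosl1, on chromosome 19 (5447547 to 5455946, plus strand), was therefore not detected beyond 1 read.

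The JUN family's summed TPM was 19.3 times that of the FOS family in replicate 1 and 9.81 times in replicate 2, and 17.7 and 9.58 times by the second quantification. FOS genes held 2.93% of the summed TPM of the 10 genes in replicate 1 and 5.30% in replicate 2, and JUN genes held 56.6% and 52.0%. These are shares of nucleoplasmic transcripts, and protein levels were not measured. The sums are of gene TPM and include non-coding transcripts. By the first quantification, coding transcripts held 55.73% and 71.21% of Fos TPM in replicates 1 and 2, and 46.27% and 55.51% of Fosl2 TPM. For each JUN gene they held at least 99.75%. A ratio of the families over coding transcripts alone was not computed.

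**Figure D2:**
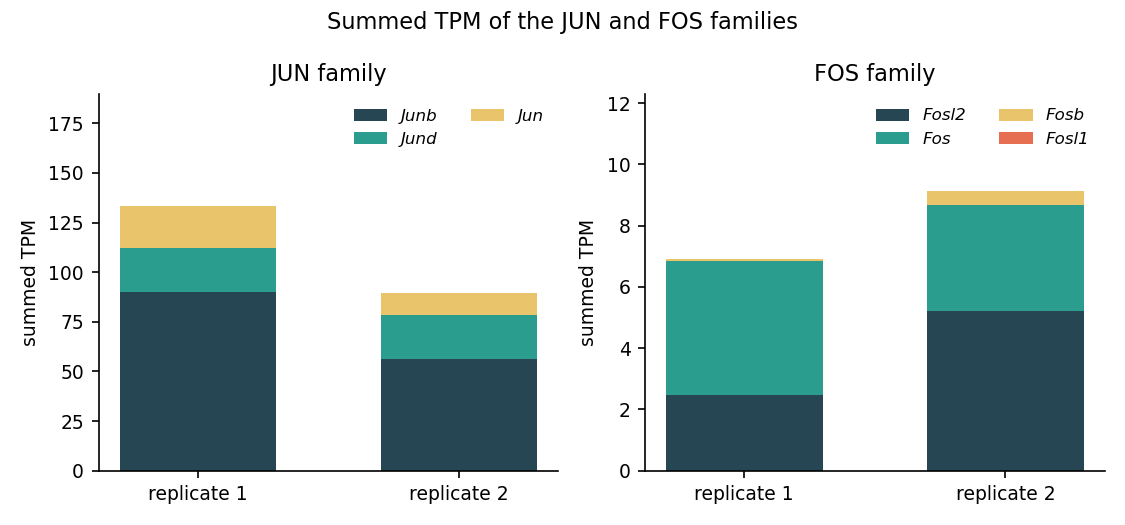
Summed TPM of the JUN genes (left) and of the FOS genes (right) in each library, stacked by gene, with different vertical axes. By the first quantification, JUN genes summed to 133.43 and 89.45 TPM in replicates 1 and 2, and FOS genes to 6.9 and 9.12 TPM, with Junb the largest part of the first and Fosl2 the part that differed most in the second.

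Atf3, a stress-inducible bZIP gene, was second in level. It had 55.28 TPM in replicate 1 and 32.13 TPM in replicate 2, a mean of 43.7 ± 16.4 TPM (SD, n = 2). Replicate 1 was again the higher library. The gene spans 191170296 to 191218039 of chromosome 1 on the minus strand, and all of its TPM was assigned to Atf3-201, whose start is the proximal one; Atf3-203, from the distal start at 191218039, had 0 counts in each library there, and 14.5 estimated counts in replicate 2 by the second quantification. The same quantification gave Atf3-201 83.6% in replicate 1 and 99.3% in replicate 2, with 176 estimated counts on the processed transcript Atf3-202 in replicate 1 and 0 in replicate 2.

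Batf encodes a bZIP protein without an activation domain, known in mouse lymphoid and dendritic cells for pairing with JUN proteins beside interferon regulatory factors. It had 32.67 TPM in replicate 1 and 33.26 TPM in replicate 2, a mean of 32.97 ± 0.417 TPM (SD, n = 2), so both libraries were alike in Batf TPM by the first quantification. In the second, replicate 2 was the higher library for Batf, at 24.4 TPM against 16.4 TPM in replicate 1. When TPM of the first was rescaled over protein-coding and long non-coding genes, replicate 1 was the higher, at 132 TPM against 97.7 TPM. Which library had more Batf thus depended on the scale. Atf3 over Batf was 1.69 in replicate 1 and 0.966 in replicate 2, and 1.67 and 0.771 by the second quantification. By gene TPM, Atf3 thus led Batf in replicate 1 only, but the Batf value includes its retained-intron transcript Batf-202. Among coding transcripts, Atf3-201 (55.28 and 32.13 TPM) lay above Batf-201 (20.29 and 20.89 TPM) in both libraries. The second quantification kept that order, with Atf3-201 at 22.9 and 18.6 and Batf-201 at 9.36 and 13.5.

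Batf (85686669 to 85709087, plus strand) and Fos lie on chromosome 12 with their starts 212.779 kb apart. Between them is Jdp2, a bZIP gene whose product also pairs with JUN proteins, which had 18.28 TPM in replicate 1 and 29.2 TPM in replicate 2. Jdp2 was the only protein-coding gene between Fos and Batf. Fos was the lowest of the 3 in both libraries. By the second quantification Jdp2, at 28.5 and 56.2 TPM, lay above Batf in both.

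Maff had 7.46 TPM in replicate 1 and 8.11 TPM in replicate 2, a mean of 7.785 ± 0.460 TPM (SD, n = 2). The second quantification set the libraries further apart in Maff, which had 4.31 TPM in replicate 1 and 6.51 TPM in replicate 2. It lies on chromosome 15 (79346621 to 79359076, plus strand). It was rank 3990 among protein-coding genes, between Jun at rank 2187 and Fos at rank 5887.

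The libraries differed beyond 2-fold for 4 of the 9 genes whose counts averaged 10 or more. Jun, Atf3 and Junb were lower in replicate 2, 3 of 9, where 5.85% of all 14831 genes past that filter were; Fosb was higher, 1 of 9, where 7.52% were. The ratios were of counts scaled by the trimmed mean of M-values (TMM), a log2 ratio of -1 is a 2-fold lower level in replicate 2, and the 95% intervals are exact binomial and cover counting error only. With 2 libraries of 1 group these are differences between libraries and not between conditions.

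Jun had 855 counts in replicate 2 and 3082 in replicate 1, a log2 ratio of -1.29 (interval -1.40 to -1.18). Atf3 had 1469 counts in replicate 2 and 4761 in replicate 1, a log2 ratio of -1.14 (interval -1.22 to -1.05). For both genes the whole interval lay beyond 2-fold. Junb, with 2322 counts in replicate 2 and 6952 in replicate 1, had a log2 ratio of -1.02 whose interval, -1.09 to -0.96, crossed the 2-fold line. Of 11360 protein-coding genes past the filter, 2.34% had a lower ratio than Jun, 3.40% a lower one than Atf3 and 4.63% a lower one than Junb.

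Fosb, with its 40 and 8 counts in replicates 2 and 1, had a log2 ratio of 2.79 with a wide interval of 1.76 to 4.19, and 99.9% of those protein-coding genes had a lower ratio. Fosl2 had 652 counts in replicate 2 and 538 in replicate 1, although replicate 2 was the shallower library, a log2 ratio of 0.83 (interval 0.67 to 1.00). Fosl2 was thus the other gene that was higher in replicate 2, with 94.1% of protein-coding genes below it. Fos (log2 ratio -0.44), Jund (-0.38), Batf (-0.32) and Maff (-0.26) lay within 2-fold, slightly to the side of replicate 1 by this scaling. The median over the 9 genes was -0.38, against 0.01 over all genes past the filter and -0.05 over the protein-coding ones.

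**Figure D3:**
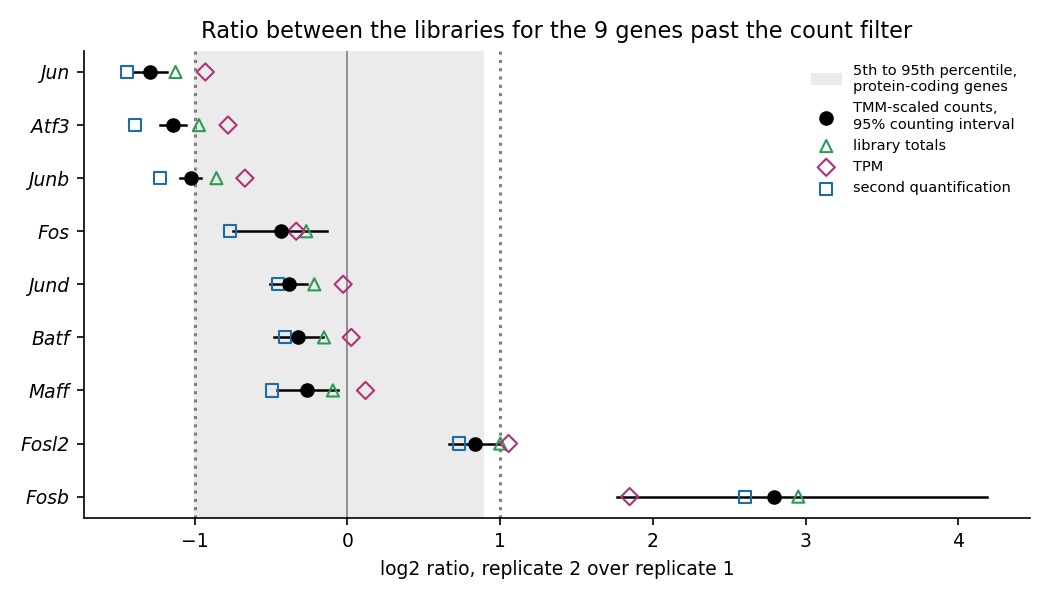
Log2 ratio of replicate 2 over replicate 1 for the 9 genes past the count filter, with TMM-scaled counts and their 95% counting interval in black and 3 other scalings as open marks; grey spans the 5th to 95th percentile of protein-coding genes (-0.998 to 0.89). Jun, Atf3 and Junb lie at or beyond the low edge and Fosl2 and Fosb toward and beyond the high edge, while the TPM ratios of all but Fosb sit to the right of the black points.

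The scaling sets how many of these differences pass 2-fold. DESeq2 size factors, a prior count of 2, no filter and the second quantification kept the same 4 genes beyond 2-fold. The second quantification gave Jun -1.44, Atf3 -1.39, Junb -1.23 and Fosb 2.60. Scaled by library totals, Jun was the only gene lower beyond 2-fold, and Fosb and Fosl2 (log2 ratio 1.00) were higher. In the ratio of TPM no gene was lower beyond 2-fold, with Jun at -0.93, Atf3 at -0.78 and Junb at -0.67, and Batf and Maff turned to the other side at 0.03 and 0.12; Fosb and Fosl2 (log2 ratio 1.06) were higher. Library totals placed the median of all genes at 0.18 and the TPM ratio placed it at 0.34. Relative to the median of all genes, Junb stood at -1.04 as reported, at -1.01 in the ratio of TPM and at -1.27 by the second quantification. Jun stood at -1.30, -1.26 and -1.48 in these, and Atf3 at -1.15, -1.12 and -1.43. Junb thus lay close to the 2-fold line by the first quantification.

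Some properties of the libraries ran beside these ratios. The input RNA weighed 1 µg for replicate 1, which had 29400104 gene counts, and 500 ng for replicate 2, which had 17789543. The share of TPM on small RNAs was 73.0% in replicate 1 and 59.7% in replicate 2, and that on mitochondrial genes was 3.31% and 12.6%. The part of these in the ratios of the 10 genes was not tested. In bulk RNA, fewer cells with a transcript and less of it per cell cannot be told apart. Macrophage markers such as Lyz2, Adgre1 and Csf1r were all above 1 TPM in both libraries (8 of 8, summing to 1617 TPM in replicate 1 and 2248 TPM in replicate 2). No marker of neutrophils (6 genes, summing to 0.79 and 1.06 TPM), B cells (4; 0.09 and 0.13), T cells (4; 0.09 and 0.30), stromal cells (4; 0.41 and 0.40) or dendritic cells (4; 0.58 and 0.86) reached 1 TPM in both. Of these markers, Elane of neutrophils and Cd209a of dendritic cells were among those at 0 in both libraries.

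Several of the multi-exon genes had reads on transcripts annotated as retaining introns. Batf-202, a transcript of 532 bases annotated as retained intron, held 37.91% of Batf TPM in replicate 1, against 37.18% in replicate 2. Of its bases, 451 lie in intron 2 of Batf, and they cover 2.35% of the 19170 bases of that intron. The share of Batf-202 thus does not measure retention of the whole intron. The protein-coding Batf-201 held the rest, 62.09% and 62.82%. The split was thus nearly the same in both. The second quantification gave Batf-202 42.8% and 44.4%.

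Fosl2 had 2 retained-intron transcripts that together held 53.73% of its TPM in replicate 1 and 44.49% in replicate 2. Fosl2-202, which covers 2839 of the 10019 bases of intron 1, accounted for 43.26% and 36.91%, and Fosl2-203 for 10.47% and 7.58%. The coding transcript Fosl2-201 held 46.27% in replicate 1 and 55.51% in replicate 2, so the library with more Fosl2 also gave the larger coding share. As background, 5524 genes had an annotated retained-intron transcript, a coding transcript and at least 1 TPM in both libraries. Their median retained-intron share was 28.8% in replicate 1 and 32.6% in replicate 2. A share at or above that of Fosl2 was found in 14.4% of these genes in replicate 1 and 32.6% in replicate 2, and at or above that of Batf in 34.7% and 43.4%. Shares of the size found for Batf were thus common in this nucleoplasmic RNA, while fewer genes reached the Fosl2 share in replicate 1.

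Fos transcripts were split between the coding Fos-201, with 55.73% in replicate 1 and 71.21% in replicate 2, and non-coding processed transcripts. Fos-202 held 31.22% in replicate 1 and 2.95% in replicate 2, and Fos-203 held 13.05% and 25.84%. These shares rest on few reads, since Fos-202 had 27.42 estimated counts in replicate 1 and 1.09 in replicate 2. The coding share was the larger in both libraries by the first quantification but was 45.7% in replicate 1 by the second.

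The 4 Maff transcripts all code for protein and differ in where they start. The first quantification gave Maff-201 76.03% in replicate 1 and 65.19% in replicate 2, and gave Maff-202 0 in both. The second gave Maff-201 33.2% and 24.8%, Maff-202 29.6% and 31.6%, and Maff-204 31.4% and 34.1%. The split over the Maff starts thus depended on the quantification. Fosb-201 held 81.56% of Fosb TPM in replicate 2, with 40 counts for the gene, and 0 in replicate 1, with 8. By the second quantification Fosb-201 held 39.9% in replicate 2, below Fosb-202 at 42.1%.

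**Figure D4:**
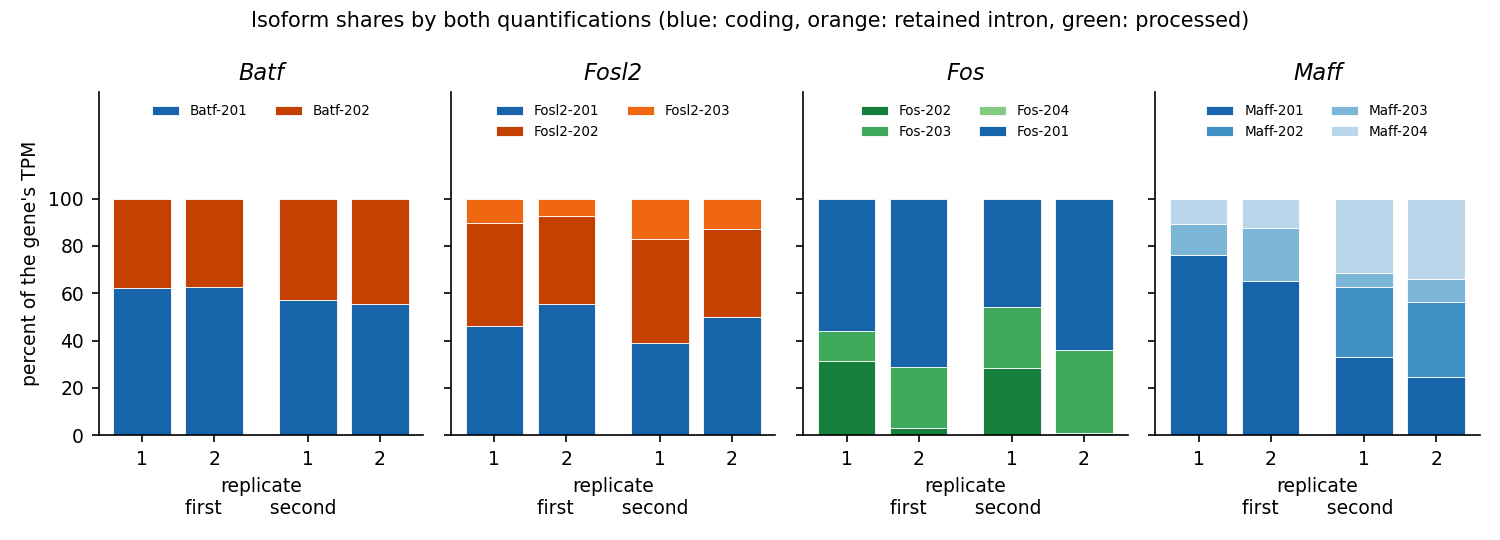
Percent of each gene's TPM held by each annotated transcript of Batf, Fosl2, Fos and Maff, for replicates 1 and 2 in the first quantification (left pair of bars) and the second (right pair). Batf-202 stays near 37% to 44%, the Fosl2 retained-intron shares span 44.49% to 61.0%, and the Maff split depends on the quantification.

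Other genes overlap 5 of the 10 on the opposite strand, and whether counting used strand is not given in the sources used here. Jun shares 689 bases with the antisense gene Junos (0.82 TPM in replicate 1, 1.17 TPM in replicate 2), and Jund shares 919 bases with the antisense gene Gm11175 (1.48 and 0 TPM). Both antisense genes were far below their partners in TPM. Junb shares 351 bases with Prdx2, a peroxiredoxin gene (10.05 and 14.84 TPM), in the minor transcript Junb-202 and outside Junb-201. Fosl1 shares 2767 bases with Ccdc85b (0.1 and 0.24 TPM), and Atf3 one small RNA gene with 0 counts. Jund counts also carried an uncertainty of assignment, with a posterior SD of 15.86 counts in replicate 1 and 2.13 in replicate 2, which is small beside its 1582 and 824 counts.

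Other bZIP genes were set beside the 10 as background. At least 1 TPM in both libraries was reached by 8 of 10 AP-1 and ATF3 genes and by 28 of 30 other bZIP genes, and the median level was 12.0 TPM in the AP-1 and ATF3 genes and 12.7 TPM in the others. The highest was Nfe2l2, the NRF2 regulator of the oxidative stress response and a partner of MAFF. It had 97.94 TPM in replicate 1 and 137.7 TPM in replicate 2, above Junb in each. Creb5 (60.3 ± 11.6 TPM, SD, n = 2) and Nfe2l1 (55.7 ± 1.23 TPM) followed, and Hlf was lowest at 0.01 and 0 TPM. Their median log2 ratio was -0.26 (0.09 in the ratio of TPM, the other side of 0), with 21 of 29 below 0, 3 lower beyond 2-fold and 0 higher. Over all genes past the filter the median was 0.01 (0.34 in the ratio of TPM), and 5.85% were lower and 7.52% higher beyond 2-fold. Cebpb, a bZIP activator of inflammatory genes, had the lowest ratio of these (-1.65, 373 counts in replicate 2 and 1729 in replicate 1), and Batf2 followed at -1.05.

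Among 20 upstream regulators (kinases, their targets SRF, ELK and MEF2, and proteins that limit JUN or its transcripts), 20 had at least 1 TPM in both libraries, and the median level was 11.7 TPM. Zfp36, whose product speeds the decay of short-lived transcripts, was highest (75.0 ± 11.5 TPM, SD, n = 2), followed by Cop1, a ubiquitin ligase that targets c-Jun (58.5 ± 5.23 TPM), and Mef2a (49.6 ± 18.5 TPM). The ubiquitin ligase gene Fbxw7 was lowest at 3.52 TPM. Their median log2 ratio was 0.28, against 0.01 over all genes, with 15 of 20 above 0. It lay to the opposite side from the median of the 9 AP-1 and ATF3 genes. None was beyond 2-fold, where 5.85% of all genes were lower and 7.52% higher. By the second quantification their median was 0.05, about that of all genes (0.04). Dusp1, a phosphatase of the same kinases (-0.79), and Zfp36 (-0.67) had the largest ratios and lay on the side of replicate 1.

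Of 24 genes often described as AP-1 or ATF3 targets, 21 had at least 1 TPM in both libraries, and the median level was 12.4 TPM. Tnf was highest, and it had 609.96 TPM in replicate 1 and 507.46 TPM in replicate 2. Spp1 (294 ± 7.74 TPM, SD, n = 2) and Ccl2 (174 ± 44.1 TPM) followed, and Mmp9 was lowest at 0.09 TPM. Their median log2 ratio was -0.43, against 0.01 over all genes, with 16 of 21 below 0. Beyond 2-fold, 3 were lower and 0 higher, where 5.85% and 7.52% of all genes were. Nos2, the inducible nitric oxide synthase gene (-1.48), and Ch25h, which encodes cholesterol 25-hydroxylase (-1.40), had the lowest ratios. Of 14 other immediate-early genes, 10 had at least 1 TPM in both libraries, and the median level was 6.98 TPM. They were led by Klf6 (160 ± 17.8 TPM), Ier5 (35.4 ± 9.75 TPM) and Ier3 (16.7 ± 0.0354 TPM). Their median log2 ratio was -0.46, against 0.01 over all genes, with 12 of 14 below 0. Klf4, the lowest in level, had a log2 ratio of -1.01, and Nr4a1 stood on the other side at 1.45, with 84 counts in replicate 2 and 45 in replicate 1.

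**Figure D5:**
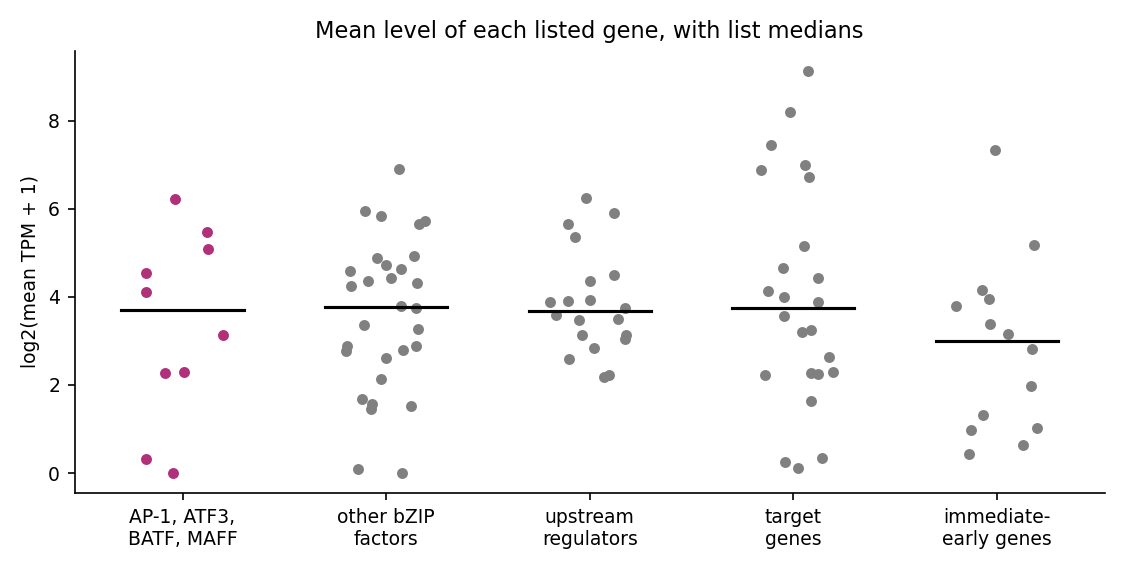
Mean level of each gene on a log2(mean TPM + 1) scale, with 1 point per gene and a line at the median of each list, for the 10 AP-1 and ATF3 genes and 4 other lists. Medians were 12.0 TPM for the 10 genes, 12.7 for other bZIP factors, 11.7 for upstream regulators, 12.4 for target genes and 6.98 for immediate-early genes, with wide overlap.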

How the data were processed

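Nucleoplasmic RNA, depleted of ribosomal RNA, was measured in 2 libraries of 1 group. The authors' deposited tables hold 2 quantifications per library on mm10 with GENCODE M21; no tool version or strand setting is given in the sources used here. The first, with the column names of RSEM per the file headers, gives expected counts and TPM per gene and transcript, isoform shares in percent, and posterior standard deviations. The second, with the column names of kallisto per the file headers, gives estimated counts and TPM per transcript, summed here per gene by the gene ID and symbol in its target names. TPM in the deposited tables covers all features, small RNAs included.

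Expected counts were rounded, rows naming no gene (0.766% and 0.272% of counts in replicates 1 and 2) were left out, and counts were scaled by TMM (edgeR 4.0.16, R 4.3.3; factors 0.944 and 1.06) with a prior count of 0.5, over genes whose counts averaged 10 or more. Intervals are exact binomial at 95% (SciPy 1.17.1). Floors of 3 counts and intervals allow for counting error alone, as the labels mention no molecular identifiers. Tables and plots used Python 3.11.15, pandas 2.3.3, numpy 2.4.6 and matplotlib 3.10.9. The ratio step was checked on simulated data. DESeq2 1.42.0 size factors, library totals, TPM ratios with a pseudocount of 0.1, a prior count of 2, no filter, the second quantification and TPM rescaled over protein-coding and long non-coding genes were tried. All 10 genes are named whatever their values; of each other list, the 3 highest and the lowest in mean TPM and the 2 largest ratios were eligible. Members and lists were chosen with earlier results of these data known; the half-site motif was added after the sequences had been seen. Amino acid sequences were not used here.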

Additional observations from a re-analysis of the deposited data

How the results depend on the processing

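No paired analysis was possible because both libraries belong to 1 group. Each level in TPM depends on what it is a share of, and 2 libraries give no more than a range. The median of the 10 genes, 12.0 TPM, was 6.26 by the second quantification, 43.1 when TPM was rescaled over protein-coding and long non-coding genes, 35.9 with both changes, and 28.3 in CPM; leaving out a replicate gave 9.61 to 14.4. With the same 3 changes, other bZIP genes gave 9.41, 43.9 and 54.2 TPM (11.24 to 11.6 without a replicate), target genes 7.56, 44.6 and 42.8 (10.73 to 12.7) and immediate-early genes 3.84, 24.6 and 21.6 (6.55 to 7.42); upstream regulators gave 39.5 rescaled and 50.2 with both (9.21 to 14.4). The combined change was chosen after seeing the data. The number of the 10 genes at 1 TPM in both libraries was 8 under the second quantification and the rescaling, and 6 reached 5 TPM.

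Genes lower in replicate 2 beyond 2-fold numbered 3 as reported, 1 by library totals and 0 by TPM, and genes higher numbered 1, 2 and 2. DESeq2 size factors, the second quantification, a prior count of 2 and no filter gave 3 lower and 1 higher, as reported. Relative to the median of all genes, every scaling gave 3 lower and 1 higher. The shift of all genes under library totals and TPM is given with the ratios. Genes higher made up 56.2% of all genes beyond 2-fold as reported, 72.5% by library totals, 84.9% by TPM, 64.7% by the second quantification and 43.2% with no filter. The median ratio of the 9 genes, -0.38, was -0.22 by library totals, -0.027 by TPM and -0.49 by the second quantification. The retained-intron share of Batf, 37.5% on average, was 43.6% by the second quantification; the cause was not tested. Depth limits Fosb and Fosl1, with at most 40 counts.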
